A study of Mus musculus with 6 samples.

Results

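Complex I, the NADH:ubiquinone oxidoreductase, was followed through every gene whose platform symbol begins with Nduf, in adult mouse hearts with and without the histone demethylase gene Kdm4a. Of 44 such genes on the array, 42 were measured above background and were kept among the 11287 genes tested. They fell by symbol into 9 Ndufs and Ndufv genes, 26 Ndufa, Ndufb and Ndufc genes and 7 Ndufaf genes, which code for assembly factors. Complex I is the entry point of the mitochondrial respiratory chain. Its matrix arm takes electrons from NADH through a flavin and a row of iron-sulfur clusters to ubiquinone, and its membrane arm uses the energy to pump protons. A conserved catalytic core is surrounded by accessory subunits, and dedicated factors put the arms together and then leave. Heart muscle, which depends on oxidative metabolism, is rich in this enzyme.

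The study compared gene expression in hearts that lack Kdm4a (also called Jmjd2a, which removes methyl groups from histone H3) with that in their controls. Total RNA from adult hearts was measured on 6 Illumina bead arrays with a single colour, in 3 pairs of a knockout and the wild type titled as its control. A general knockout line gave 1 knockout and 1 wild type of unstated sex, and a heart-specific knockout line gave a female pair and a male pair. The driver of the heart-specific deletion, the alleles, the strain and the number of animals behind an array are not given here. Differences are log2 knockout minus wild type within a pair, on the scale of the deposited intensities, which keep the array background and so compress differences of dim probes. A probe counted as above background where it exceeded the 95th percentile of 1528 probes for olfactory, vomeronasal and trace amine receptors on that array, a level of 121 to 123.6. Each gene was read from its brightest kept probe. In whole-heart RNA, fewer cells of a type and less RNA per cell cannot be told apart.

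The knockout itself could not be seen in the transcript. The brightest of 3 Kdm4a probes read 115, 119 and 123 in the general, female and male wild types and 102, 107 and 114 in the matching knockouts, and it exceeded background on 1 array. The other 2 Kdm4a probes exceeded it on none, and the place of the probes relative to the deleted part is not given here, so the genotype labels were taken as they stand. On each array 18307 to 19662 of 45281 probes (40.4% to 43.4%) exceeded background. Precision is limited by the number of arrays. The labels give different sexes but do not otherwise say that each array is a separate animal, so the p-values reflect the spread among these 6 samples alone, and that spread may be technical.

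Among the 44 genes, 2 did not pass the background level on at least 2 arrays. The probe for Ndufs1, the large iron-sulfur subunit of the matrix arm, read 95.97 to 124 and passed on 1 array, and that for the assembly factor Ndufaf6 read 90.92 to 111 and passed on none. The dimmest genes inside the limit, the assembly factor Ndufaf3 and the membrane-arm subunit Ndufb11, had mean intensities of 178 and 222. All 42 kept members exceeded background on all 6 arrays. The gene read under Ndufs5-ps is annotated as a pseudogene, and its probe may read Ndufs5 itself. Ndufa4 keeps its historical name although its protein is now assigned to cytochrome c oxidase, and Ndufab1 also serves as the mitochondrial acyl carrier protein. Ndufs4, Ndufs6 and Ndufv3 are accessory subunits in spite of their symbols, so 5 conserved core members were measured, Ndufs3, Ndufs7, Ndufs8, Ndufv1 and Ndufv2.

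Some promoters of the members hold short sequences that the choice by name did not use. RefSeq windows of build GRCm38.p6, from 250 bases before to 50 after the transcription start, were found for 39 of the 42 members (41 promoters). Each was searched on both strands for GCGCANGCG, a motif of NRF1, for CCGGAAGT, a motif of the ETS family that includes GABPA, and for AAGATGGCG, a motif of YY1. NRF1 and GABPA are known regulators of nuclear respiratory genes. The NRF1 motif stood in 10 of the 41 promoters (24.4%), against 12.3% of 11654 promoters of genes tested and 6.25% of all 32851 promoters. The YY1 motif stood in 6 (14.6%), against 2.7% and 1.4%, and the ETS motif in 1 (2.44%), against 7.38% and 3.89%. At least 1 of the 3 motifs was present in 16 member promoters (39%), against 20.4% of promoters of genes tested. The counts are of promoters, and overlapping windows of Ndufa5 hold the same NRF1 match, which was counted in each. A match describes the letters and is not evidence of binding.

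The next 5 stretches show such matches in capitals, for members described further on, written 5′ to 3′ on the strand of the gene. Ndufaf5 (chr2:140170632-140170695, plus strand) and Ndufa5 (chr6:24527667-24527746, minus strand) were higher in all 3 knockouts on their brightest probes and carry an NRF1 match. In Ndufaf5 the match reads on both strands, with the copies overlapping. Ndufs3 (chr2:90904672-90904751, minus strand), a core subunit, holds the only ETS match, on the opposite strand. Ndufs6 (chr13:73328433-73328527, minus strand) holds an NRF1 match on the opposite strand and a YY1 match. Ndufb4 (chr16:37654367-37654477, minus strand), the member whose pairs differed most, has 3 NRF1 matches in its window from 250 bases before the start, of which this stretch shows 2 in capitals.
Ndufaf5: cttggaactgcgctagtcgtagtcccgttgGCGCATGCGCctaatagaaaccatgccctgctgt
Ndufa5: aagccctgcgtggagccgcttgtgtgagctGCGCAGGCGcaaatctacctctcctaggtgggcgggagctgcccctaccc
Ndufs3: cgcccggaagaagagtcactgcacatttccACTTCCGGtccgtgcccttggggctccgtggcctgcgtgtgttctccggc
Ndufs6: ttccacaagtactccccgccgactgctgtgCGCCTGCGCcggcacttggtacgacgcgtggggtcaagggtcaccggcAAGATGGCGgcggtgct
Ndufb4: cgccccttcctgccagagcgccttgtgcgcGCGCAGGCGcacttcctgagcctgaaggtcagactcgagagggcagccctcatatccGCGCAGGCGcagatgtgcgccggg

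Complex I transcripts tended to read higher in the general and the male knockout than in their wild types, in the general pair only among the brighter members. They did not in the female knockout, and no single member passed the test. The median difference over the 42 members was 0.12 in the general pair, -0.03 in the female pair and 0.26 in the male pair, where the median over all genes tested was 0.02, -0.01 and -0.0011. Higher in the knockout were 32 members (76.2%) in the general pair, 20 (47.6%) in the female pair and 35 (83.3%) in the male pair, beside 53.4%, 48.8% and 49.8% of all genes tested. In the general pair 24 of the 26 members of mean intensity at least 10000 were higher (median 0.16), beside 60.1% of other genes that bright. Of the 16 dimmer members 8 were higher there (median 0.0029). In the male pair 21 of the 26 and 14 of the 16 were higher. This split was made after the data were seen. The median of the members' mean over 3 pairs was 0.12, and the 3 pair medians had an SD of 0.15.

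No member's difference passed the test over the 3 pairs. Limma with the pair as a block called 0 of 42 members and 0 of 11287 genes (0%) at an adjusted p under 0.05, and each member's adjusted p was 1.0. At an unadjusted p under 0.05 it gave 303 genes (2.68%), among them 6 members, Ndufa12, Ndufa2, Ndufaf5, Ndufb3, Ndufc2 and Ndufv3, with each of the 6 higher in the knockout. Without the male pair that level held 1 member and 278 of the 11287 genes, and without the general pair 3 members and 506 genes. Without the female pair it held 5 members and 398 genes. After background subtraction with an offset of 16 it held 1 member and 389 genes. In the heart-specific line alone limma also called 0 members and 0 genes (0%), with 506 genes (4.48%) and 3 members, Ndufaf3, Ndufb3 and Ndufb7, at an unadjusted p under 0.05.

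On their brightest probes, 11 of 42 members (26.2%) read higher in every knockout, beside 11.4% of all genes. They were Ndufa1, Ndufa12, Ndufa2, Ndufa5, Ndufaf3, Ndufaf5, Ndufaf7, Ndufb3, Ndufc2, Ndufs3 and Ndufv3. Another kept probe was lower in the general knockout for Ndufa5 (-0.02) and Ndufaf5 (-0.47). The same was so in the female knockout for Ndufc2 (-0.26) and Ndufv3 (-0.23). No member was lower in all 3 knockouts, beside 10.5% of all genes. On the brightest probes all 3 knockout arrays read above all 3 wild-type arrays for 6 members, beside 3.14% of all genes. These 6 were Ndufa1, Ndufa12, Ndufaf3, Ndufaf5, Ndufc2 and Ndufv3. The reverse held for no member and 3.06% of all genes. Both heart-specific knockouts read higher for 16 members (38.1%), beside 24.5% of genes, and lower for 3, Ndufa10, Ndufb11 and Ndufb8, beside 25.8%.

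**Figure D1:**
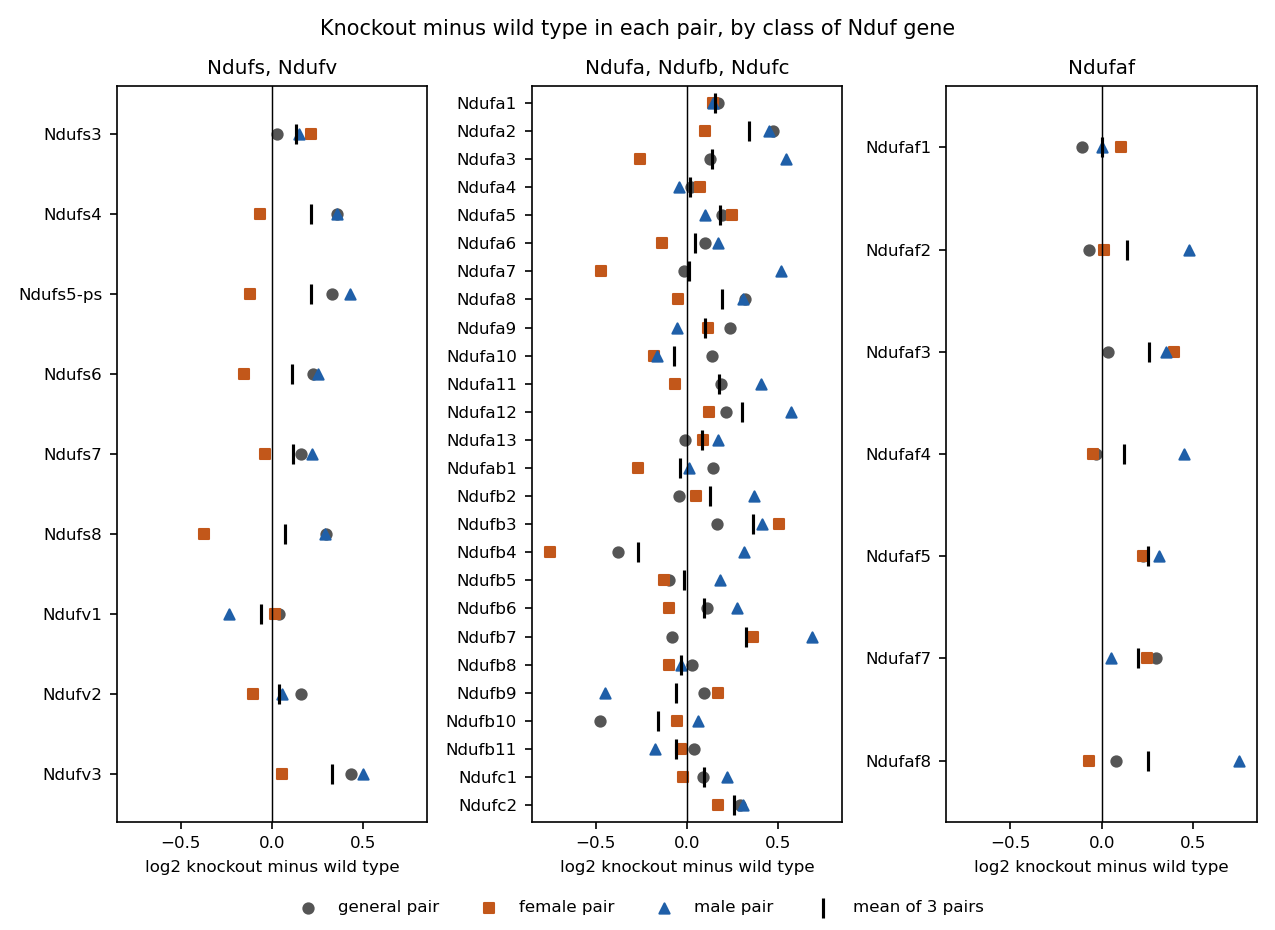
Log2 difference of knockout minus wild type (horizontal axis) for each of the 42 Nduf members (rows, in 1 panel per class), with a circle for the general, a square for the female and a triangle for the male pair, a short bar at the mean of 3 pairs and a line at 0. Points of the general and male pairs lie mostly right of 0, 32 and 35 of 42, and those of the female pair on both sides, 20 of 42.

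Core subunits by symbol followed the same order of pairs. All 9 Ndufs and Ndufv members read higher in the general knockout, 3 of 9 in the female and 8 of 9 in the male. Their medians were 0.22, -0.07 and 0.25. All 9 had a mean intensity of at least 10000. Of other genes that bright, 60.1%, 44.3% and 46.8% were higher in the general, female and male knockouts. The 5 conserved core subunits had medians of 0.16, -0.04 and 0.15.

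Ndufv1, which holds the flavin that accepts electrons from NADH, read 18644, 22506 and 22858 in the general, female and male wild types and 19174, 22729.8 and 19413 in the matching knockouts. The pairs differed by 0.04, 0.01 and -0.24, and the male pair is the only one with a lower knockout. Ndufv2, its iron-sulfur partner, read 19957, 23451 and 20515 in the 3 wild types and 22303, 21845 and 21311 in the matching knockouts, which gave 0.16, -0.10 and 0.05 with overlapping genotypes.

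Ndufs7 and Ndufs8 carry the iron-sulfur clusters that lead to ubiquinone. Ndufs7 read 17564, 21193 and 16102 in wild-type hearts of the general, female and male pair and 19588, 20633 and 18749.8 in the knockouts, with differences of 0.16, -0.04 and 0.22. Ndufs8 read 11849.8, 17447 and 10245 in the general, female and male wild types and 14519, 13489.6 and 12507 in the matching knockouts, with differences of 0.29, -0.37 and 0.29. In both genes the female wild type was the brightest array and the male wild type the dimmest. Ndufs3, a subunit next to the ubiquinone site without a cluster of its own, was the conserved core member that read higher in each knockout. Its intensities were 10539.8, 11586 and 11672 in the 3 wild types and 10756, 13441 and 12911 in the matching knockouts, which gave 0.03, 0.21 and 0.15 and a mean of 0.13 ± 0.09 (SD, n = 3 pairs), and its arrays overlapped between genotypes.

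Of the accessory subunits with a core symbol, Ndufv3 sits beside the NADH-oxidising end. It read 15811, 19102 and 14438 in wild-type hearts of the general, female and male pair and 21311, 19832 and 20374 in the knockouts, and on this probe the knockouts lay above all wild types. Its differences were 0.43, 0.05 and 0.50, with a mean of 0.33 ± 0.24 (SD, n = 3 pairs). Its 2 other kept probes had female differences of -0.23 and -0.08, and 1 of them a male difference of -0.08. The unadjusted limma p was 0.0308 and the adjusted p 1.0. Ndufs6, a zinc-binding subunit added late in assembly, was among the brightest probes at 24563, 33044 and 23729 in the general, female and male wild types and 28705, 29738 and 28293 in the matching knockouts. It differed by 0.22, -0.15 and 0.25, and Ndufs4, another late subunit of the matrix arm, by 0.36, -0.07 and 0.36. On their brightest probes both were higher in the general and male knockouts and lower in the female one. Ndufs5-ps had the same signs at 0.33, -0.12 and 0.43. The other kept Ndufs4 probes differed by 0.27, -0.11 and 0.06 in the general pair and by -0.23, -0.34 and 0.02 in the female pair.

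The 26 accessory members by symbol had medians of 0.10, -0.03 and 0.20, with 19, 12 and 20 of them higher in the general, female and male knockouts. The 14 Ndufa members had medians of 0.16, 0.01 and 0.17. The 10 Ndufb members, all of the membrane arm, had -0.01, -0.04 and 0.23. Both Ndufc members read higher in the general and the male knockout, with medians of 0.19 and 0.27, and 1 of the 2 in the female, with a median of 0.07.

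By place in the enzyme, the 14 matrix-arm members had medians of 0.21, -0.01 and 0.24, with 13, 7 and 12 higher. The 18 membrane-arm members had medians of 0.09, -0.04 and 0.25, with 12, 7 and 14 higher. Both arms thus had the female pair near 0 and the male pair highest. All 14 matrix-arm members had a mean intensity of at least 10000, while the membrane arm held brighter and dimmer members. The part of probe brightness in the medians of classes and arms was not tested.

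**Figure D2:**
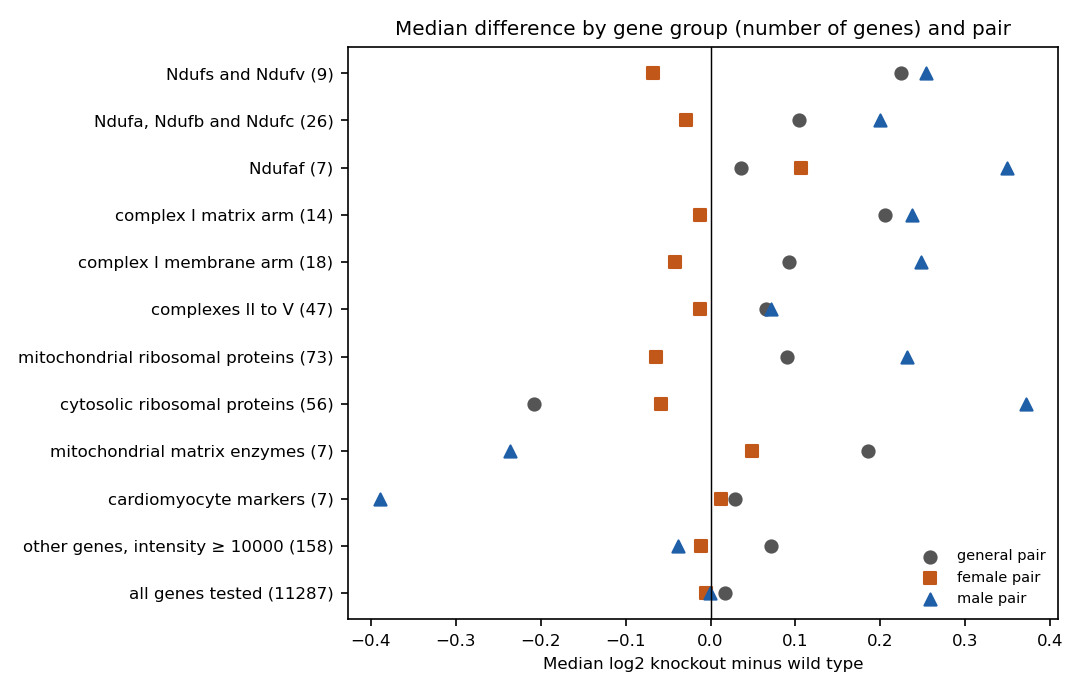
Median log2 difference of knockout minus wild type (horizontal axis) in the general (circle), female (square) and male (triangle) pair for the Nduf classes and arms and for comparison groups (rows, with the number of genes). In the male pair the Ndufs and Ndufv genes stand at 0.25 and the cardiomyocyte markers at -0.39.

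On the brightest probes, 4 Ndufa members were higher in every knockout, Ndufa12, Ndufa2, Ndufa5 and Ndufa1. Ndufa12, the paralogue that takes the place of the assembly factor Ndufaf2 late in assembly, read 14807, 15685 and 12870.5 in the 3 wild types and 17203, 17028 and 19102 in the matching knockouts. All 3 knockouts lay above all wild types, and the male pair differed most. Its differences were 0.22, 0.12 and 0.57, the mean 0.30 ± 0.24 (SD, n = 3 pairs), and limma gave an unadjusted p of 0.0417 and an adjusted p of 1.0. Ndufa2, a subunit with a thioredoxin-like fold at the NADH end, read 13835, 17915 and 12964 in wild-type hearts of the general, female and male pair and 19153, 19174 and 17712 in the knockouts. It differed by 0.47, 0.10 and 0.45, with a mean of 0.34 ± 0.21 (SD, n = 3 pairs) and an unadjusted limma p of 0.0224 (adjusted 1.0). Its female wild type overlapped the male knockout.

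Ndufa5, a matrix-arm subunit, read 18034, 21379.9 and 17893 in the general, female and male wild types and 20633, 25410.4 and 19174 in the matching knockouts. The differences were 0.19, 0.25 and 0.10, with a mean of 0.18 ± 0.08 (SD, n = 3 pairs). The female wild type lay above the general and male knockouts. The other kept Ndufa5 probe differed by -0.02, 0.21 and 0.02. Ndufa1, a small X-linked subunit of the membrane arm, read 20374, 20981 and 19174 in the 3 wild types and 22943, 23171 and 21193 in the matching knockouts. Its pairs were the most even of the 42 members, at 0.17, 0.14 and 0.14 with a mean of 0.15 ± 0.02 (SD, n = 3 pairs), and its genotypes did not overlap. The limma p of Ndufa1 was 0.164 before adjustment and 1.0 after it.

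Of the Ndufa members whose female and male pairs went apart, Ndufa7 and Ndufa3 stood out. Ndufa7, of the matrix arm, read 12404, 14169 and 8340.3 in wild-type hearts of the general, female and male pair and 12291, 10219.9 and 11922 in the knockouts, with differences of -0.01, -0.47 and 0.52. Ndufa3, of the membrane arm, read 19309.5, 22729.8 and 13722 in the general, female and male wild types and 21067, 18997 and 20017 in the matching knockouts, with differences of 0.13, -0.26 and 0.54. In both, the female wild type was the brightest array and the male wild type the dimmest, and the knockouts lay between. Ndufa10, a membrane-arm subunit with a nucleoside kinase fold, read 13878, 18681 and 16139 in the 3 wild types and 15247, 16519 and 14399 in the matching knockouts, lower in both heart-specific knockouts at 0.14, -0.18 and -0.16.

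Among the brightest probes, Ndufa4 varied least between arrays of all members. Ndufa13, also known as GRIM-19, read 37283, 37017 and 32072 in wild-type hearts of the general, female and male pair and 37017, 39341 and 36105 in the knockouts, with differences of -0.01, 0.09 and 0.17. Ndufa4 read 34282, 32449 and 32215 in the general, female and male wild types and 34808, 34104 and 31315 in the matching knockouts, with differences of 0.02, 0.07 and -0.04. The highest Ndufa4 array exceeded its lowest by 1.11-fold, and that of Ndufa13 by 1.23-fold. Ndufab1 read 23451, 28429 and 21562 in the 3 wild types and 25870.0, 23612 and 21747 in the matching knockouts, with differences of 0.14, -0.27 and 0.01.

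**Figure D3:**
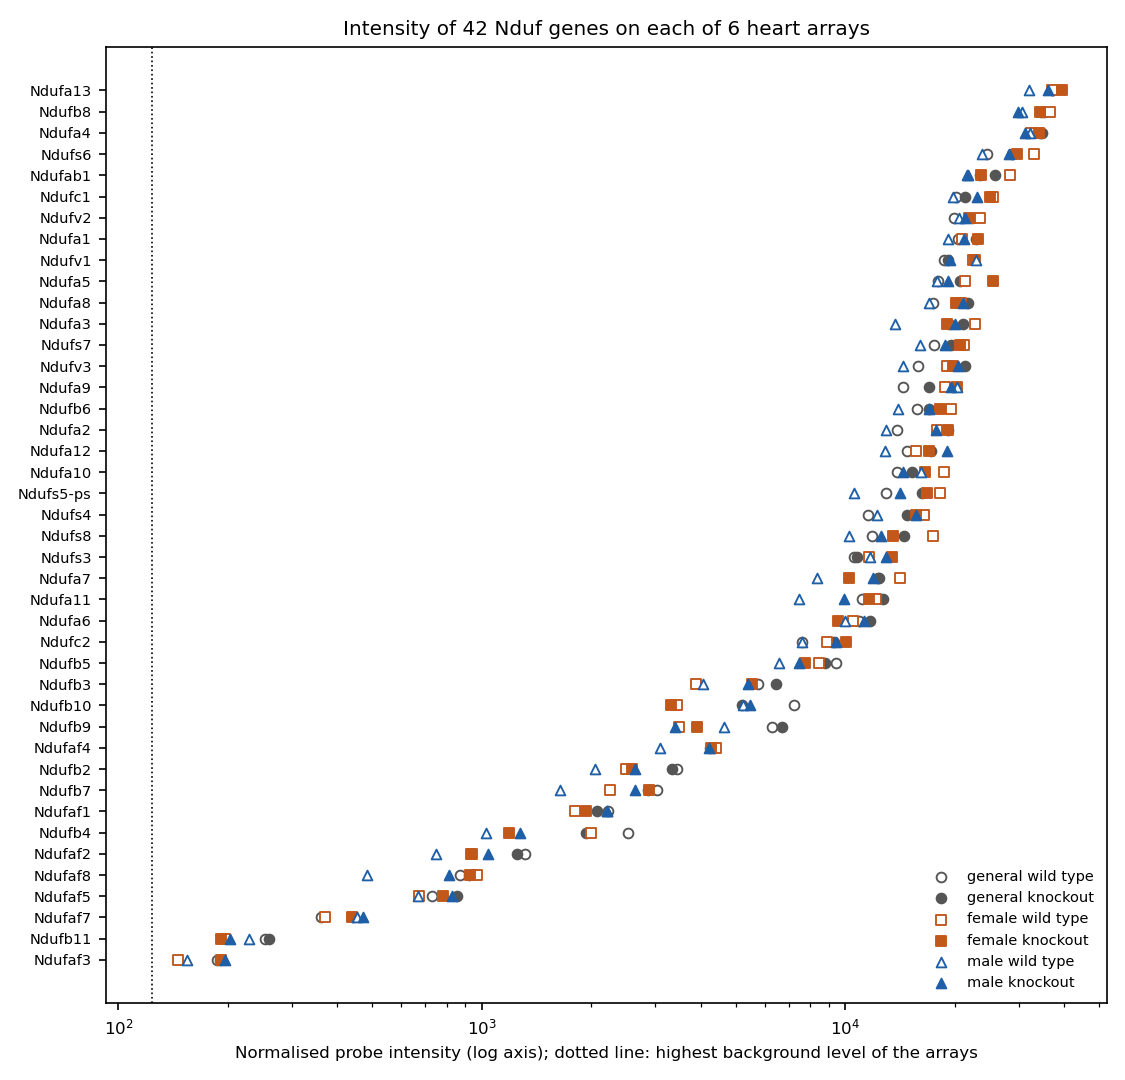
Deposited intensity (log axis) of the kept probe of each Nduf member (rows) on the 6 arrays, with open symbols for wild types, filled symbols for knockouts and a dotted line at the highest background level. Intensities run from 146 for Ndufaf3 to 39341 for Ndufa13, and intensities of different probes do not rank transcripts by abundance.

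The Ndufb members, which build the proton-pumping membrane arm, held both the highest heart-specific means and the widest disagreement between pairs. Ndufb3 read 5762, 3895 and 4059 in wild-type hearts of the general, female and male pair and 6449, 5521 and 5402 in the knockouts. Within each pair the knockout was brighter, while the general arrays of both genotypes were brighter than their heart-specific counterparts, so the genotypes overlapped. Its differences were 0.16, 0.50 and 0.41, the mean 0.36 ± 0.18 (SD, n = 3 pairs), and limma gave an unadjusted p of 0.0143 over 3 pairs and 0.00984 in the heart-specific line (adjusted 1.0 and 0.974).

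Ndufb7, a cysteine-rich subunit on the intermembrane side, read 3026, 2248 and 1638 in the general, female and male wild types and 2863, 2887 and 2632 in the matching knockouts. Both heart-specific knockouts were brighter than their wild types, at 0.36 and 0.68 in the female and male pair, and the general knockout was dimmer at -0.08. The heart-specific mean of 0.52 ± 0.23 (SD, n = 2 pairs) had an unadjusted limma p of 0.00844 and an adjusted p of 0.974. The difference between lines for Ndufb7 was 0.60, with an unadjusted limma p of 0.0452 and an adjusted p of 0.769. Ndufb7 was the 1 member at an unadjusted p under 0.05 in that test, which called 0 members and 7 genes (0.062%) and held 725 genes (6.42%) at an unadjusted p under 0.05. The count of members was 0 with either background offset (16 or 50), beside 707 and 747 genes. It was also 0 with probes above background on all arrays (551 of 8559 genes) and with an intensity trend (730 genes). It was 2 without a filter (1234 of 19057 genes) or with every probe on its own (1303 of 21021 probes).

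Ndufb4 read 2519, 2000.2 and 1026 in the 3 wild types and 1939, 1191 and 1277 in the matching knockouts. It was lower in the general and female knockouts and higher in the male one, at -0.38, -0.75 and 0.32, and its highest array exceeded its lowest by 2.45-fold, the widest ratio among the members. Ndufb10, another cysteine-rich subunit, read 7229, 3449 and 5239 in wild-type hearts of the general, female and male pair and 5191, 3320.2 and 5463 in the knockouts. The general wild type was the brightest and the female arrays the dimmest, and the pairs differed by -0.48, -0.06 and 0.06.

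Ndufb8 and Ndufb11, of the membrane arm, were lower in both heart-specific knockouts on their brightest probes. Ndufb8 read 34505, 36633 and 30621 in the general, female and male wild types and 35208, 34282 and 29927 in the matching knockouts, with differences of 0.03, -0.10 and -0.03. Ndufb11, X-linked and near the background, read 253, 196 and 229 in the 3 wild types and 259.7, 192 and 203 in the matching knockouts, with differences of 0.04, -0.03 and -0.18. The genotypes overlapped in both. The other kept probe of each gene was higher in the female and male knockouts, by 0.11 and 0.13 for Ndufb8 and by 0.08 and 0.10 for Ndufb11. Ndufc2, a membrane-arm subunit, read 7608, 8921 and 7608 in wild-type hearts of the general, female and male pair and 9291, 10031 and 9431 in the knockouts. On this probe the knockouts lay above all wild types, with differences of 0.29, 0.17 and 0.31. The mean was 0.26 ± 0.08 (SD, n = 3 pairs), with an unadjusted limma p of 0.0386 (adjusted 1.0).

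The 7 assembly factors had medians of 0.04, 0.11 and 0.35, with 4, 5 and 7 of them higher in the general, female and male knockouts. On the brightest probes theirs was the only median of the 3 symbol classes above 0 in the female pair. With the mean of a gene's probes the accessory median there was 0.0152. All 7 were among the 16 members below a mean intensity of 10000, whose female median was 0.08, with 10 of the 16 higher. Ndufaf5, an enzyme that hydroxylates an arginine of Ndufs7, read 730.2, 671 and 669 in the general, female and male wild types and 854, 784 and 830.1 in the matching knockouts. On this probe all 3 knockouts lay above all wild types, at 0.23, 0.23 and 0.31. The mean was 0.25 ± 0.05 (SD, n = 3 pairs), and the unadjusted limma p was 0.0372 (adjusted 1.0). Ndufaf8, its binding partner, read 871, 973 and 483 in the 3 wild types and 920.1, 928 and 813 in the matching knockouts. The male wild type stood far below the other 5 arrays, and the pairs differed by 0.08, -0.07 and 0.75.

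Ndufaf3 and Ndufaf4 act together on the ubiquinone-binding part of the matrix arm. Ndufaf3 read 186, 146 and 154 in wild-type hearts of the general, female and male pair and 191, 192 and 197 in the knockouts, with the knockouts above all wild types. Its differences were 0.04, 0.39 and 0.35, and the heart-specific mean of 0.37 ± 0.03 (SD, n = 2 pairs) had an unadjusted limma p of 0.0236 and an adjusted p of 0.974. On its brightest probe Ndufaf4 differed by -0.03, -0.05 and 0.45 and was higher only in the male knockout. Its other kept probe differed by 0.34, -0.01 and 0.78.

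Ndufaf7, a protein methyltransferase, read 361, 370.3 and 455 in the general, female and male wild types and 444, 440.3 and 470.3 in the matching knockouts. It was higher in each knockout, at 0.30, 0.25 and 0.05, with a mean of 0.20 ± 0.13 (SD, n = 3 pairs), and the male wild type overlapped the knockouts. Ndufaf1, a factor of membrane-arm assembly, differed by -0.11, 0.11 and 0.0026. Ndufaf2, the paralogue of Ndufa12, differed by -0.07, 0.01 and 0.48, and its male pair alone was far from 0.

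The male wild-type array stood apart in these genes, though not in them alone. It was the dimmest of the 6 arrays for 25 of 42 members and the brightest for 1, and the members' median deviation from their own means was -0.20 on it, beside 0.0013 over all genes tested. On the other arrays the members' median deviation was -0.04 and 0.11 for the general wild type and knockout, 0.08 and 0.08 for the female wild type and knockout, and 0.03 for the male knockout. The general knockout was the dimmest array for no member and had 36 of 42 above their own mean, against 8 on the male wild type. The female wild type was the brightest array for 15 members. On the male wild type the median deviation was -0.28 for 73 mitochondrial ribosomal proteins, -0.40 for 56 cytosolic ones and -0.13 for 47 genes of complexes II to V.

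Between the wild types, the members read higher in the female than in the male heart by a median of 0.29, with 32 of 42 higher, where all genes had a median of 0.01. The mitochondrial ribosomal proteins had a median of 0.24 there, with 75.3% higher, and the genes of complexes II to V 0.20, with 63.8% higher. Between the heart-specific knockouts the members' median was 0.06, with 27 higher. The male wild type also lay below the general wild type, by a median of -0.14 with 34 members lower. Without the male pair, the members' median over the other pairs was 0.04, 15 of 42 members were higher in both pairs left (24.2% of all genes) and 5 were lower in both (21.8%). Without the female pair the median was 0.18 and 25 of 42 members were higher in both (25.2% of all genes).

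**Figure D4:**
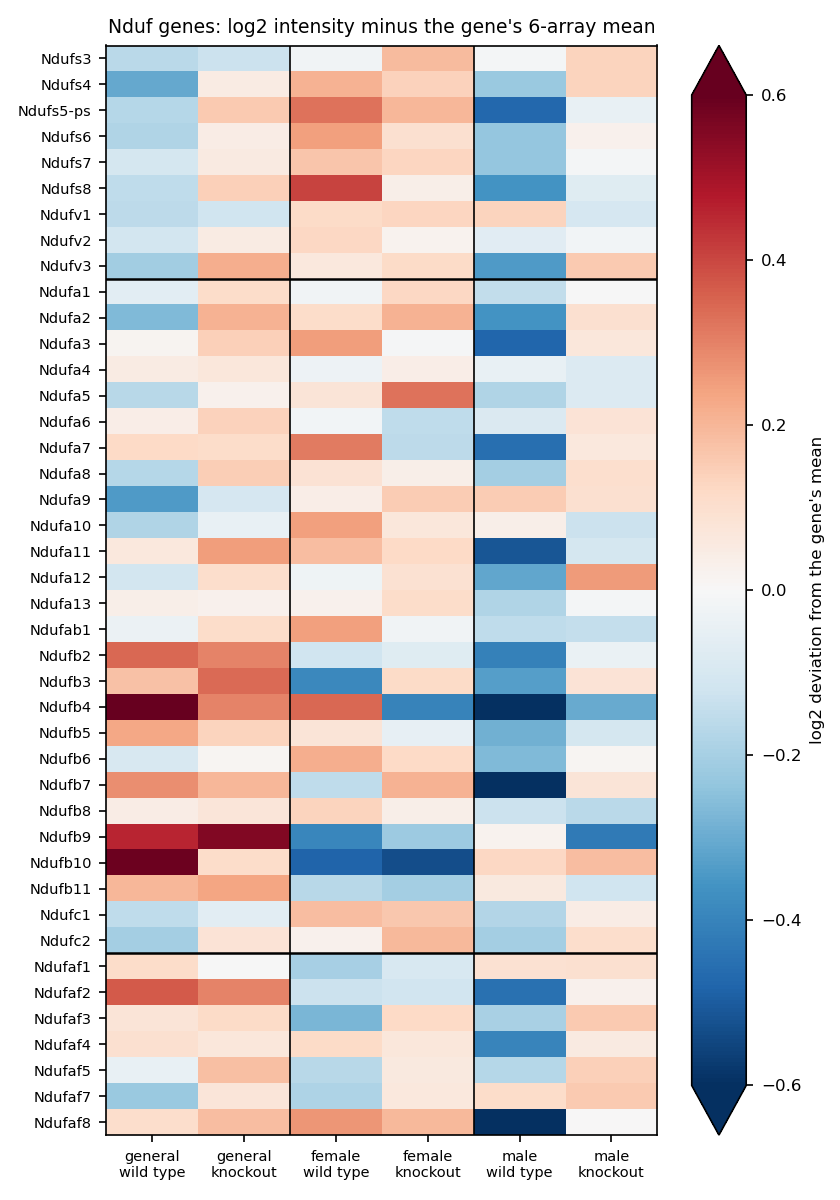
Heat map of the deviation of log2 intensity from the member's mean over 6 arrays (red higher, blue lower, with the colour scale cut at its ends) for the 42 Nduf members (rows, by class) on each array (columns). The male wild type is mostly blue, with a median of -0.20, and the general knockout mostly red, with a median of 0.11.

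The test of sex in the 4 heart-specific arrays, with genotype as a term, called 0 of 42 members and 6 genes (0.0532%) by limma at an adjusted p under 0.05, with 1257 genes (11.1%) and 6 members at an unadjusted p under 0.05. Females read higher for 32 of 42 members, beside 51.6% of all genes, with a median of 0.17. Ndufa11, Ndufa5, Ndufaf8, Ndufs5-ps and Ndufs8 were higher in females, by 0.46, 0.33, 0.60, 0.52 and 0.44, with adjusted p from 0.358 to 0.439. Ndufb10 was lower in females by a log2 difference of -0.66, with an unadjusted limma p of 0.00158 and an adjusted p of 0.194, the smallest of the members. These values use the male wild type on which the members were dim.

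Other genes on the male arrays did not all behave alike. Of the cardiomyocyte markers, 7 of 8 were measured, and 4, 4 and 0 of the 7 were higher in the general, female and male knockouts, with medians of 0.03, 0.01 and -0.39. Their summed intensity was 153733 and 160780.0 on the general wild type and knockout, 160178 and 169981 on the female ones, and 192534 and 161179 on the male ones. The mitochondrial matrix enzymes, such as citrate synthase (Cs), had 6, 4 and 0 of 7 measured members higher, with medians of 0.19, 0.05 and -0.24. The summed intensity of each of these lists was thus highest on the male wild type, on which most Nduf members were dimmest, though single genes such as Tnni3 and Idh2 were brightest on another array.

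Ribosomal genes went with the Nduf members in the male pair. The 73 mitochondrial ribosomal proteins had medians of 0.09, -0.06 and 0.23, with 52, 26 and 56 higher. Of these 73, 12 were higher in all 3 knockouts and 0 lower. The 56 cytosolic ribosomal proteins, a group added after the data were seen, had medians of -0.21, -0.06 and 0.37. The 47 genes of complexes II to V, the rest of the respiratory chain and the ATP synthase, had medians of 0.07, -0.01 and 0.07, of which 6 were higher and 1 lower in all 3 knockouts. The 158 other genes of mean intensity of at least 10000, likewise grouped after the data were seen, had medians of 0.07, -0.01 and -0.04, beside 0.16, -0.06 and 0.22 for the 26 Nduf members that bright. The part of probe brightness in the differences was not tested. The part of the male wild-type array in the members' values was not tested beyond leaving out its pair.

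Markers of other cell types also differed between the hearts of a pair. The 4 atrial markers had medians of -2.08, 0.94 and 0.24, with 0, 4 and 2 higher in the general, female and male knockouts. The red cell markers, of which 4 of the 5 listed were measured, had medians of -1.09, 0.48 and 0.38. The red cell genes did not move together. Hba-a1 differed by 0.49, 0.31 and 0.10 and Hbb-b2 by -0.29, 0.30 and -2.34. Alas2 differed by -1.88, 0.72 and 1.12 and Slc4a1 by -2.41, 0.65 and 0.65. The 3 measured neutrophil markers had -1.45, 0.27 and -0.24, with 0, 2 and 1 higher. The 6 fibroblast markers had -0.44, 0.03 and -0.29, with 2, 3 and 1 higher. Medians were 0.07, 0.38 and -0.265 for 5 endothelial markers and -0.21, 0.12 and -0.06 for 5 measured macrophage markers. They were -0.03, -0.10 and -0.11 for 3 measured smooth muscle markers and -0.82, 0.21 and -0.48 for 2 measured skeletal muscle markers. The part of cell composition in the members' differences was not tested.

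Genes of complex I outside the Nduf symbols had medians nearer 0 in the general and male pairs. Of 22 listed, 13 were measured, with medians of 0.04, -0.06 and -0.06 and 7, 5 and 5 higher. All 13 read below an intensity of 10000. The 16 Nduf members of a mean intensity below 10000 had medians of 0.0029 and 0.31 in the general and male pairs. The 7 Ndufaf members had 0.04 and 0.35 there, so in the general pair neither group lay farther from 0 than the list. Acad9, of the membrane-arm assembly complex, was lower in all 3 knockouts at -0.14, -0.06 and -0.09, as were Tmem242 at -0.11, -0.06 and -0.18 and Aifm1 at -0.04, -0.08 and -0.31. Dmac2 was the 1 gene of the list higher in all 3, at 0.04, 0.29 and 0.07. None of the 13 passed the limma test in any of the 4 comparisons. The mitochondrially encoded subunits were not analysed here.

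Of 15 listed regulators of respiratory genes, 14 were measured, with medians of 0.05, 0.04 and -0.09. Ppargc1b, a coactivator of mitochondrial gene programmes, was higher in all 3 knockouts at 0.29, 0.57 and 0.40, and so was Polrmt, the mitochondrial RNA polymerase, at 0.05, 0.09 and 0.09. Gabpa was lower in all 3, at -0.01, -0.06 and -0.10. Ppargc1a, the related coactivator, differed by 0.79, -0.75 and -0.57. None of the 14 passed the limma test in any of the 4 comparisons, and Yy1 did not exceed background.

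The choice of probe mattered for single members. Of the 42, 16 had several kept probes, and all kept probes of a gene had the same sign in 9 of the 16 in the general pair, 6 in the female and 11 in the male, with 3 (Ndufa3, Ndufc1 and Ndufs6) in every pair. The median gap between a gene's highest and lowest probe was 0.28, 0.14 and 0.27 in the 3 pairs. The second Ndufaf5 probe differed by -0.47 in the general pair, where the brightest differed by 0.23. The second Ndufc2 probe differed by -0.26 in the female pair, where the brightest differed by 0.17. In Ndufaf8 the male difference was 0.75 on the brightest probe and -0.09 on the other, the widest gap at 0.84. The second Ndufb10 probe differed by 0.52 in the female pair and -0.53 in the male pair, against -0.06 and 0.06 on the brightest.

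**Figure D5:**
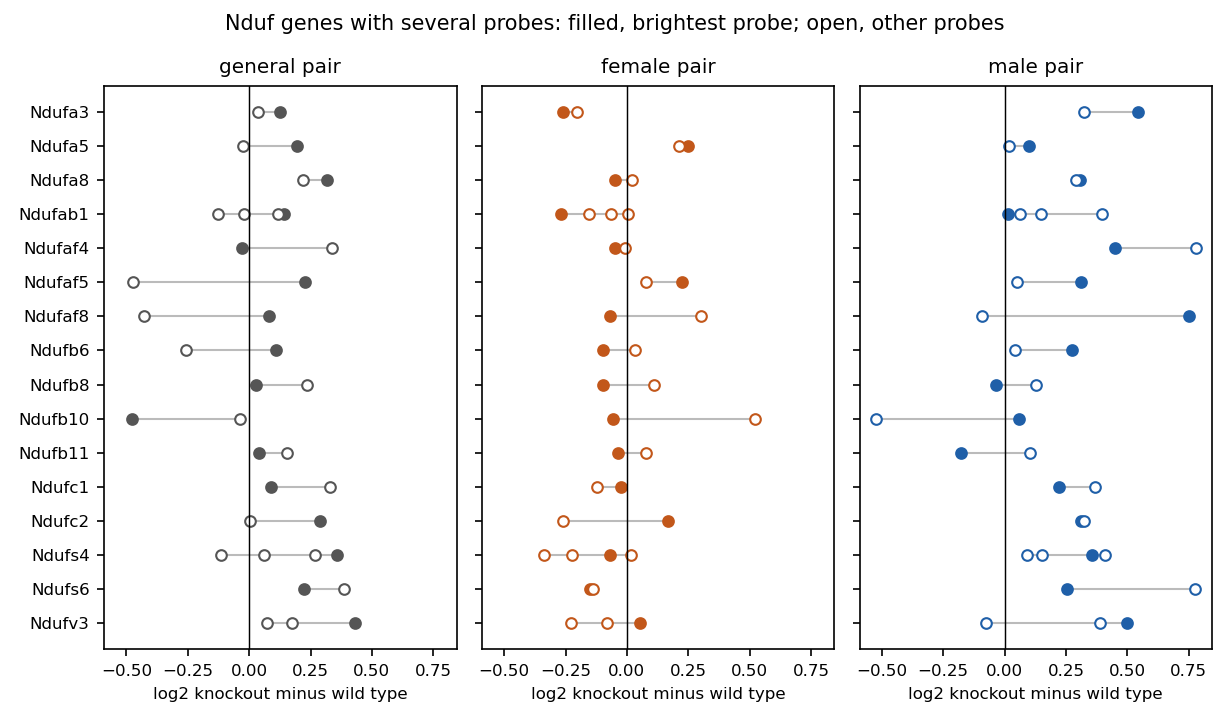
Log2 difference of knockout minus wild type (horizontal axis) on each kept probe of the 16 Nduf members with several (rows), in 1 panel for each pair, with the brightest probe filled and the others open. Probes of Ndufaf8, Ndufaf5 and Ndufb10 lie farthest apart, by up to 0.84.

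The NRF1 motif stood both in members higher in all 3 knockouts and in the rest. Of 11 promoters of those members, 3 held the NRF1 motif, 1 the ETS motif and 0 the YY1 motif, and of the 30 other member promoters 7, 0 and 6 did. The 11 promoters belong to 10 genes, and the NRF1 match of Ndufa5 was counted in each of its overlapping windows. These counts were not tested.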

How the data were processed

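Total RNA of adult mouse hearts was labelled with biotin and hybridised to 6 single-colour Illumina arrays, per the labels' protocols. Per the submitters' processing notes, the authors produced the deposited intensities in GenomeStudio, of unstated version and options. These values are linear, from 82.48 to 50962, with array medians of 117, and the sorted columns differed by at most 2.31%, so they were taken as quantile-normalized. They show no background subtraction. A second deposited table has 12 per-sample columns under numeric headings found in no label, and these were not used. The background correction and detection p-values first intended depended on them, and the log2 of the deposited intensities, with no further normalization, took their place.

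Samples were grouped and paired by title. Of 45281 probes, the platform annotation names 1 gene for 34885, several for 18 and none for 10378, and 34807 matched the GRCm38.p6 gene table. Probes above background on at least 2 of 6 arrays were kept (21021), and 4344 of the 11287 genes had several. The members had 68 probes. Tests used R 4.3.3 and limma 3.58.1 with Benjamini-Hochberg adjustment over all genes at 0.05. Residual degrees of freedom were 2 for the 3 pairs (prior 5.27) and 1 in the other tests (prior 5.65). A single model with a knockout term per line gave both the heart-specific effect and the line difference. The general pair alone has no replicate and no test. Deviations from the genotype means correlated within each pair (r = 0.338, 0.327 and 0.343). The fits were tested on simulated data.

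Members named with all intensities are up to 6 with 1 sign in all pairs, up to 4 per direction in the heart-specific pairs, 4 with the widest gap between female and male pairs, 4 of largest size in the general pair, and the 5 brightest and 5 dimmest. Conserved core members and assembly factors are also named, with up to 3 of each other list. Dmac2, Ppargc1a, Ndufs4, Ndufs5-ps, Ndufa11 and the red cell genes were picked once their values had been seen. The members and lists were chosen with earlier results of these data known. Alternatives covered background subtraction, the probe filter, the choice of probe, an intensity trend, the pair block and leaving out each pair.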

Additional observations from a re-analysis of the deposited data

Results flagged for a closer look

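The female and the male pair of the heart-specific line had opposite signs in several summaries of the Nduf members, and these differences between pairs were not tested, since each pair is 1 knockout and 1 wild-type array. For all 42 members, the median of the male pair exceeded that of the female pair by 0.29. The same gap was 0.32 for the Ndufs and Ndufv members, 0.23 for the Ndufa, Ndufb and Ndufc members and 0.18 for the conserved core. It was 0.25 in the matrix arm and 0.29 in the membrane arm.

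Among single members, the male difference exceeded the female one by 1.06 in Ndufb4, 0.99 in Ndufa7, 0.82 in Ndufaf8 and 0.80 in Ndufa3. Each of these 4 was dimmest on the male wild type. The part of that array in the gaps was not tested.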

How the results depend on the processing

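The 3 pairs limit what can be called, and differences of dim members such as Ndufaf3 and Ndufb11 are compressed by the background left in the signal. No alternative called a Nduf member. Of 571 values recomputed under alternatives, 513 were labelled the same, 46 moved and 12 reversed. A median was the same if it shifted by less than the SD of the 3 pair medians. That SD was 0.15 for the 42 members, whose median was 0.12. A tested value of a single member was the same if its sign and call held, and unchanged counts without a call were also the same. The 513 thus do not measure how stable the sizes were. Leaving out Ndufs5-ps, an alternative chosen after seeing the data, left 11 members higher in all 3 knockouts.

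The heart-specific fit called 1 gene of all tested after background subtraction with an offset of 16 or 50, 2 with the mean of a gene's probes and 1 with an intensity trend. The test between lines called 19 and 21 genes with these offsets, 22 without a filter, 0 with probes above background on all arrays, 26 with the mean of probes, 19 with every probe and 23 with the trend. The sex test called 15, 33, 2, 39, 19 and 20 genes with the offsets, the all-array filter, the mean of probes, every probe and the trend. The causes were not tested.

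Without the pair as a replicate block, limma called 0 genes over the 3 pairs, with 163 at an unadjusted p under 0.05, against 303 with it. With the mean of a gene's probes, the members' female median was 0.0099, the accessory one 0.0152 and the assembly factors' general median -0.0713. With it 1 member was lower in both heart-specific knockouts, 3 had all knockouts above all wild types, and the heart-specific Ndufb8 value was 0.0276. Of 63 kept member probes, 53 were higher in the male knockout. For these counts of members and probes, the share over all genes or probes under the same setting was not computed.

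Leaving out a pair gave member medians from 0.04 to 0.18, 15 to 25 members higher in both remaining pairs, and 0 to 5 lower. The assembly factors' median ran from 0.0051 without the male pair to 0.2443 without the general pair. Means of single members ran from -0.0531 without the female pair to 0.0545 without the general pair for Ndufaf1 (-0.0011 without the male pair), from -0.0296 without the male pair to 0.2443 for Ndufaf2, from -0.0393 without the male pair to 0.2101 for Ndufaf4, from -0.0417 without the general pair to 0.2904 for Ndufs8 (-0.0390 without the male pair), from -0.1107 to 0.0274 without the male pair for Ndufv1, and from -0.0237 without the general pair to 0.1076 for Ndufv2.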

Other observations

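The Ndufb members tended to read higher on the general arrays than on the heart-specific ones, in both genotypes. Their median deviation from their own means over the 6 arrays was 0.25 on the general wild type and 0.22 on the general knockout, against -0.14 and -0.06 on the female wild type and knockout and -0.28 and -0.07 on the male ones. The matrix-arm members did not have this order, with -0.16 and 0.05 on the general arrays, 0.11 and 0.12 on the female arrays and -0.23 and 0.07 on the male arrays. The 16 Nduf members of any class below a mean intensity of 10000 had the order of the Ndufb members. Their medians were 0.19 and 0.18 on the general arrays, -0.16 and 0.01 on the female and -0.25 and 0.06 on the male. The 26 brighter members did not have it, at -0.13 and 0.07, 0.13 and 0.11, and -0.19 and 0.0036. The order was noticed in the data and not tested, nor was the part of probe brightness in it. Line, strain and handling cannot be told apart here.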
